A study of Mus musculus with 6 samples.

Results

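The cholesterol synthesis enzymes described here are 8 genes of the pathway, Hmgcs1, Mvd, Idi1, Fdps, Fdft1, Sqle, Lss and Cyp51, taken by symbol from a table of 24419 genes. All 8 had a row, and all 8 passed the filter on low values that left 14796 genes for testing, so no member is missing from the counts below. RNA was sequenced from sorted cells of male mouse cerebral cortex at the border of an infarct, 4 days after the middle cerebral artery had been occluded for 60 minutes. The group labelled cKO (3 libraries) carried Slc17a7-cre, Slc32a1-cre and Padi4flox/flox, so that Cre is driven from genes that mark glutamatergic (Slc17a7) and GABAergic (Slc32a1) neurons. The group labelled control (3 libraries) carried Padi4flox/flox without Cre. Both groups had the occlusion, 75 minutes of pronase and the same sort for Thy1-positive cells without ACSA2, CD31, CD45 or O4. The Cre lines had no Cre-only group here, ages are not given, and nothing in the labels says whether libraries came from separate or pooled mice, so the spread between libraries may be technical.

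Cholesterol is built from acetyl-CoA through the mevalonate pathway, which makes isoprenoid units, and then through squalene and lanosterol. The adult brain makes its own cholesterol because plasma lipoproteins do not cross the blood-brain barrier, and oligodendrocytes, which build myelin, and astrocytes are the main producers. Transcription of nearly every enzyme is driven by SREBP2, the Srebf2 product, which is released from the endoplasmic reticulum when sterols are low, so the enzymes are known to be regulated as a set.

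Start-site windows are shown first because SREBP2 is known to act at promoters. Whether it had a part in the levels measured here was not tested. RefSeq windows (GRCm38.p6, from 250 bases before to 50 bases after the start) were matched for 5 members, Hmgcs1, Mvd, Idi1, Lss and Cyp51. Printed are Hmgcs1, Idi1, Lss and Cyp51. Of the 5 windows, only that of Hmgcs1 matched the sterol regulatory element core searched for. Idi1 varied most between libraries, Lss varied least, and Cyp51 had the smallest unadjusted p. Capitals mark matches, on either strand, to the sterol regulatory element core TCACNCCAC, the CCAAT box and the GC box GGGCGG. The windows are chr13:119690101-119690400 on the plus strand for Hmgcs1, chr13:8885356-8885655 on the plus strand for Idi1, chr5:4104648-4104947 on the minus strand for Cyp51, and chr10:76531355-76531654 on the plus strand for Lss.
Hmgcs1: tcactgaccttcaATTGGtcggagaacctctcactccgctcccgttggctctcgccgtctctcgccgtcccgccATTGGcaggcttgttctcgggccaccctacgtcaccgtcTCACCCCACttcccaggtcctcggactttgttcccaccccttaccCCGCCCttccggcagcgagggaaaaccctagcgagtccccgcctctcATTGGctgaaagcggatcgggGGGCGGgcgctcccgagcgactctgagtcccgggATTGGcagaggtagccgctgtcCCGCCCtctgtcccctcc
Idi1: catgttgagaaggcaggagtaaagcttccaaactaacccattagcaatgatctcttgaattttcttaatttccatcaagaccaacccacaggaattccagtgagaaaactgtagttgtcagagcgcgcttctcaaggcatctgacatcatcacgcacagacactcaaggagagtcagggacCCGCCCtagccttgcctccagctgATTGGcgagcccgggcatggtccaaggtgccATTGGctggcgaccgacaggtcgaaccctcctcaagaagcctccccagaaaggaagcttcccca
Cyp51: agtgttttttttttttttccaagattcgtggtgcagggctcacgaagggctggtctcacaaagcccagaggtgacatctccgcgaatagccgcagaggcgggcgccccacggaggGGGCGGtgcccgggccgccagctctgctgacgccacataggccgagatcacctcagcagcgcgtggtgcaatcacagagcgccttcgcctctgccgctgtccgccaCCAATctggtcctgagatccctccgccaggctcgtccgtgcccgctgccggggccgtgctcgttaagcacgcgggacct
Lss: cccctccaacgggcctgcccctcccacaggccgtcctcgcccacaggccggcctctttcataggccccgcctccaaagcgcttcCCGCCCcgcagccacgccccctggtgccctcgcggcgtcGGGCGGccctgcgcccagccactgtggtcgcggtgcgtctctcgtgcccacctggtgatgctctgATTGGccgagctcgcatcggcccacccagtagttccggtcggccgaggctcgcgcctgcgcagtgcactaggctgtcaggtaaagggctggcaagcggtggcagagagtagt
The sterol regulatory element core was found in 1 of the 5 windows, that of Hmgcs1, where TCACCCCAC began 137 bases before the start on the gene's own strand. Of 32851 RefSeq windows of the same length, 1.24% held this core. Only this pattern was searched, so a window without a match may still hold a sterol element with other letters. A CCAAT box was found in all 5 member windows and a GC box in all 5, against 37.4% and 35.7% of all windows. Hmgcs1 held 4 CCAAT boxes and 3 GC boxes, Idi1 2 and 1, Cyp51 1 and 1, and Lss 1 and 2. No match overlapped another, a match is letters only and not a measured binding site, and the members were chosen with earlier results known.

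Padi4, the gene to be deleted, was near the floor in every library, so it is a weak check of the labels. Its few reads ran against them: cKO replicates 1 to 3 held 0, 3 and 12, against 0 in each control library. In the deposited unit explained below, exact Poisson 95% intervals of control replicates 1 to 3 reached up to 0.340, 0.271 and 0.205. The values of cKO replicates 1 to 3 were 0, 0.303 and 0.505. Which exons loxP flanks is unknown here, so reads outside the deleted part could not be told apart from intact RNA. Group names below are therefore labels only, and directions follow those labels. Recovered depth was 10094145 to 24056755 reads per library. Read numbers of cKO replicate 2, its 3 Padi4 reads included, were treated as less certain, since the value of 1 read there, 0.101, lies close to a rounding step. Its values were nonetheless 100% whole multiples of that step, as in the other libraries. Replicate 2 of each group had the fewest detected genes, 14042 in cKO and 15261 in control, against 16818 to 17891 in the other 4. The closest of all 15 pairs of libraries crossed the labels: cKO replicate 1 and control replicate 1 differed by a median of 0.27 on the log2 scale over the tested genes, against 0.40 to 0.91 for the other pairs. Control replicate 1 was the highest or lowest of the 6 libraries in only 20.2% of tested genes, the smallest such share, and cKO replicate 2 in 58.2%, the largest. The sorted cells carried the neuronal gene Snap25 at 384 to 2619, but also the oligodendrocyte gene Cldn11 at 955 to 2111, in the deposited unit explained below, although the sort left out O4-positive cells.

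No enzyme of the set differed between the groups beyond the spread between libraries. Limma, fitted on log2(value + 1) over all tested genes, called 0 of the 8 members at an adjusted p under 0.05, where it called 0% of all tested genes. Limma's adjusted p was 0.9996 for each of the 8, which was also the smallest over all tested genes, so it sets no member apart. At an unadjusted p under 0.05 there were also 0 of 8, against 0.852% of tested genes (50 higher and 76 lower). The groups overlapped in all 8, while 4.7% of tested genes had groups that did not overlap. Of the 8, 6 were lower and 2 higher in cKO, with a median log2 difference of -0.27, and 52% of all tested genes were lower, with a median of -0.02. Values below are the authors' deposited scaled CPM, read counts scaled to depth (CPM) and then rescaled once more per library, and differences are cKO minus control with the standard error (SE) and the 95% interval from limma.

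Hmgcs1 encodes cytosolic HMG-CoA synthase of the early mevalonate pathway. It lies on chromosome 13 from 119690379 to 119708260 in GRCm38 and shares 557 exon bases with Gm48342 on the opposite strand. Its level was 261, 201 and 143 in cKO replicates 1 to 3, against 316, 130 and 397 in control replicates 1 to 3. Control libraries held both the lowest and the highest value, and the 3 cKO libraries lay between them. Hmgcs1 averaged 202 ± 59.0 in cKO and 281 ± 137 in control (SD, n = 3 each), a log2 difference of -0.37 (SE 0.43, interval -1.33 to 0.59). Without control replicate 2 the difference was -0.85, the widest of the leave-one-out values for this gene, and it was not called there either.

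Mvd, Idi1 and Fdps follow in the isoprenoid part of the pathway. Mvd encodes mevalonate diphosphate decarboxylase, the enzyme that forms isopentenyl diphosphate, and was the lowest member. Mvd was at 4.41, 1.41 and 4.76 in cKO, against 4.61, 9.71 and 7.39 in control. The groups overlapped only where cKO replicate 3 stood just above control replicate 1. Its means were 3.53 ± 1.84 in cKO and 7.24 ± 2.55 in control (SD, n = 3 each), and the log2 difference of -0.91 (SE 0.65, interval -2.36 to 0.53) was the largest in size among the members. The lowest value, in cKO replicate 2, rested on 14 reads, and read numbers of this library were treated as less certain, as given above. Its exact Poisson 95% interval was 0.773 to 2.37, which covers counting error only. Without that library the difference was -0.51. Mvd lies on chromosome 8 from 122433601 to 122443422.

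Idi1 encodes isopentenyl-diphosphate isomerase, which converts isopentenyl to dimethylallyl diphosphate, and had the widest spread of the set. Idi1 was at 48.5, 22.5 and 11.7 in cKO, against 40.8, 1.69 and 62.8 in control. Control replicate 2 stood far below the other 5 libraries, with 23 reads and an exact Poisson 95% interval of 1.07 to 2.54, so counting error alone does not cover the gap. The means were 27.5 ± 18.9 in cKO and 35.1 ± 30.9 in control (SD, n = 3 each). On the log2 scale the difference had the other sign, 0.35 (SE 1.04, interval -1.97 to 2.66). It was -1.08 without control replicate 2, 1.21 without control replicate 3 and -0.16 without cKO replicate 1, so its direction rested on single libraries. Idi1 lies on chromosome 13 from 8885501 to 8892451 and shares 323 exon bases with Gm48574 on the opposite strand.

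Fdps encodes farnesyl diphosphate synthase, whose product feeds both sterols and protein prenylation. Fdps was at 21.4, 29.1 and 17.8 in cKO, against 24.9, 20.6 and 32.4 in control. The libraries of both groups were interleaved. The log2 difference was -0.19 (SE 0.42, interval -1.12 to 0.75). Fdps lies on chromosome 3 from 89093588 to 89101959, and the GENCODE M21 annotation places the gene Gm43738 on the same strand over 1124 of its exon bases, so its reads could be counted differently under another annotation.

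In the sterol part, Fdft1 and Sqle commit carbon to cholesterol. Fdft1 encodes squalene synthase and was the steadiest member within cKO, at 62.7, 65.7 and 61.4, against 62.1, 34.8 and 74.1 in control. The 3 cKO libraries and control replicate 1 were nearly level, with control replicate 2 below them and control replicate 3 above. The means were 63.3 ± 2.17 in cKO and 57.0 ± 20.2 in control (SD, n = 3 each), a log2 difference of 0.21 (SE 0.36, interval -0.59 to 1.01) that was -0.10 without control replicate 2. Fdft1 lies on chromosome 14 from 63145150 to 63179578 and shares 774 exon bases with Ctsb on the opposite strand, and no source used here gives the strand setting of the counting.

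Sqle encodes squalene epoxidase, a rate-controlling step of the sterol part. Sqle was at 76.5, 48.2 and 38.1 in cKO, against 71.3, 31.2 and 132 in control. As for Hmgcs1, control replicate 2 was the lowest and control replicate 3 the highest library. The log2 difference was -0.35 (SE 0.51, interval -1.48 to 0.78), and 0.13 without control replicate 3. Sqle lies on chromosome 15 from 59315077 to 59331192.

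Lss encodes lanosterol synthase, which closes the sterol rings, and varied least of the 8. Lss was at 45.1, 38.2 and 44.0 in cKO, against 36.2, 43.5 and 60.8 in control. Only control replicate 3 stood apart, above the rest. The log2 difference was -0.11 (SE 0.35, interval -0.89 to 0.66), and 0.09 without control replicate 3. Lss lies on chromosome 10 from 76531588 to 76557138 and shares 381 exon bases with the antisense gene 4930483K19Rik.

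Cyp51 encodes lanosterol 14-alpha-demethylase and had the smallest unadjusted p of the set. Cyp51 was at 104, 74.0 and 62.7 in cKO, against 114, 82.5 and 173 in control. Control replicate 3 was again the highest, and 2 of the 3 cKO libraries lay below all control libraries. The means were 80.3 ± 21.4 in cKO and 123 ± 45.7 in control (SD, n = 3 each), a log2 difference of -0.58 (SE 0.36, interval -1.38 to 0.22). The limma p was 0.139 before adjustment, with an adjusted p of 0.9996. The difference ran from -0.83 without control replicate 2 to -0.30 without control replicate 3. Cyp51 lies on chromosome 5 from 4081145 to 4104746 and shares 166 exon bases with Akap9 on the opposite strand.

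**Figure D1:**
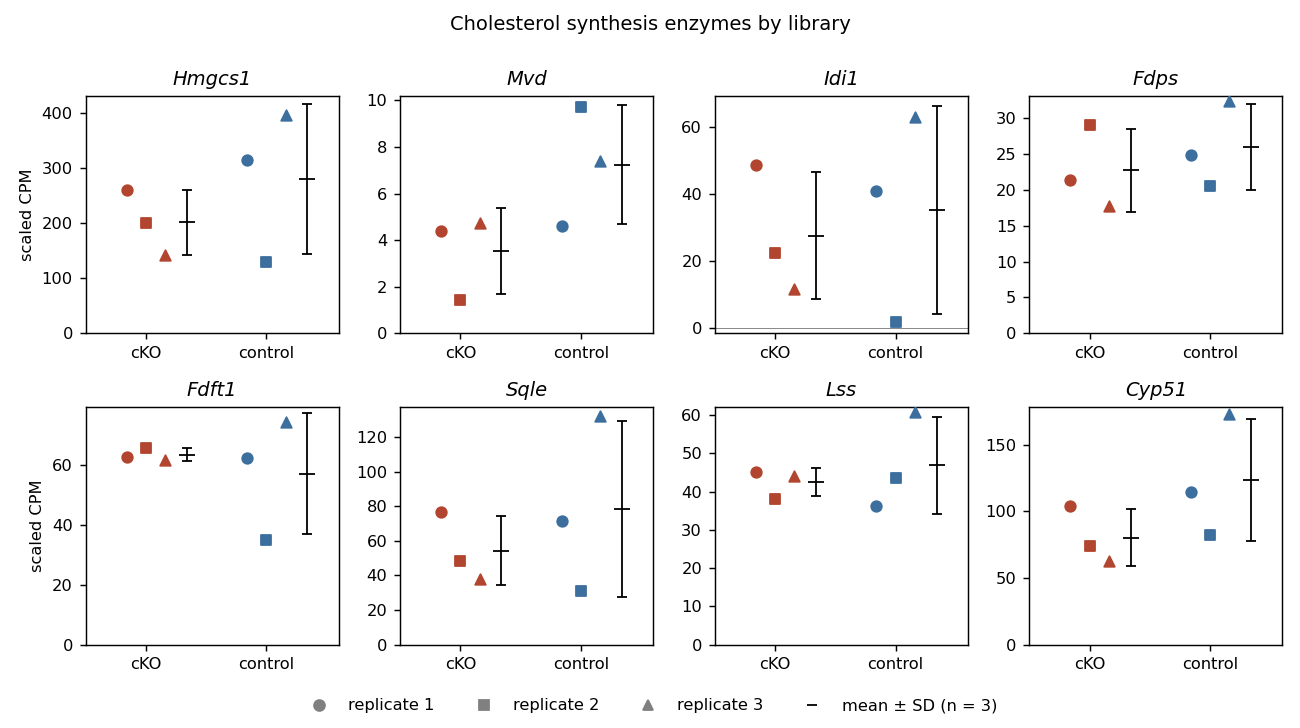
Deposited level (scaled CPM, vertical axis) of each of the 8 enzymes in the cKO libraries (red, left) and the control libraries (blue, right), 1 point per library, with the mean ± SD of 3 libraries as a bar. The groups overlap in every panel, and control replicate 3 (blue triangle) is the highest library in 7 of 8.

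**Figure D2:**
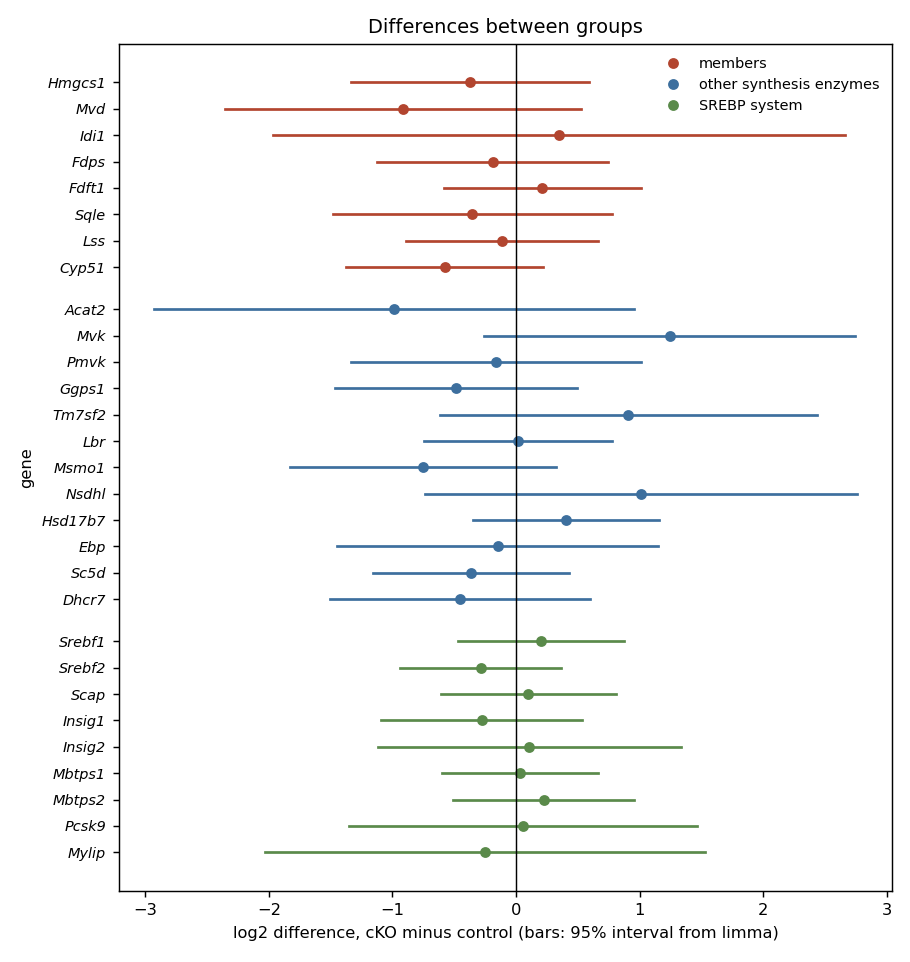
Log2 difference, cKO minus control, with limma's 95% interval, for the 8 members (red), 12 of the other synthesis enzymes (blue) and 9 genes of the SREBP system (green). Every interval includes 0; among the members the points run from -0.91 for Mvd to 0.35 for Idi1.

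The intervals leave room for sizeable differences in either direction. For Lss, the most precisely measured, they span -0.89 to 0.66 on the log2 scale, and for Idi1 -1.97 to 2.66. These data thus do not show that any of the enzymes was level between the groups.

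The spread on the log2 scale was wider within control than within cKO for 6 of the 8 members. The exceptions were Mvd, with a log2 SD of 0.70 in cKO and 0.47 in control, and Fdps, with 0.34 in cKO and 0.32 in control. Control replicate 3 was the highest of the 6 libraries for 7 of the 8 members, all but Mvd, where 12.8% of tested genes had their highest value in that library. Control replicate 2 was the lowest for 4 of the 8 (Hmgcs1, Idi1, Fdft1 and Sqle), where 19.0% of tested genes had their lowest value there. Between these libraries of the same label, the ratio of control replicate 3 to control replicate 2 was 37.1 for Idi1, 4.24 for Sqle, 3.05 for Hmgcs1, 2.13 for Fdft1 and 2.09 for Cyp51. It was 1.57 for Fdps, 1.40 for Lss and 0.761 for Mvd, and the median over 14051 tested genes above 0 in both was 0.993. The ratio of the highest to the lowest library had a median of 2.90 over the 8 members, from 1.68 for Lss to 37.1 for Idi1, close to the 2.97 over the 12953 tested genes above 0 in all 6 libraries. The swings were thus near those of other genes in size, while 7 of the 8 members shared the library that stood highest.

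Members differed in how closely they followed their own mean profile. Each member's log2 level was centred on its mean over the 6 libraries and the 8 profiles were averaged. This mean profile stood at 0.22, -0.21 and -0.37 in cKO replicates 1 to 3, against 0.22, -0.62 and 0.77 in control replicates 1 to 3. cKO replicate 1 and control replicate 1 were level in it, as they were close over all genes. The value in control replicate 2 rested largely on Idi1, at -3.01. Sqle, Hmgcs1 and Fdft1 were also low there, at -0.90, -0.77 and -0.74, while Mvd was high, at 0.89. Cyp51, Fdps and Lss were at -0.22, -0.20 and -0.02. Without Idi1, an alternative chosen after seeing the data, the mean profile was 0.08, -0.26 and -0.32 in cKO, against 0.12, -0.28 and 0.65 in control, so that cKO replicate 3 was the lowest library and control replicate 3 still the highest. Hmgcs1, Cyp51 and Sqle lay nearest to the mean profile of all 8 members, at mean absolute log2 distances of 0.14, 0.17 and 0.20. Fdft1, Fdps and Lss were at 0.27, 0.30 and 0.33. Mvd, at 0.62, ran the other way between control replicates 2 and 3, and Idi1, at 0.93, took the same course with larger steps. The member profiles enter the mean they are compared with, so these distances are descriptions. Measured from the mean without Idi1, Cyp51 was nearest at 0.13, followed by Fdps at 0.20 and Lss at 0.21, with Hmgcs1 at 0.27, Sqle at 0.31 and Mvd at 0.49.

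**Figure D3:**
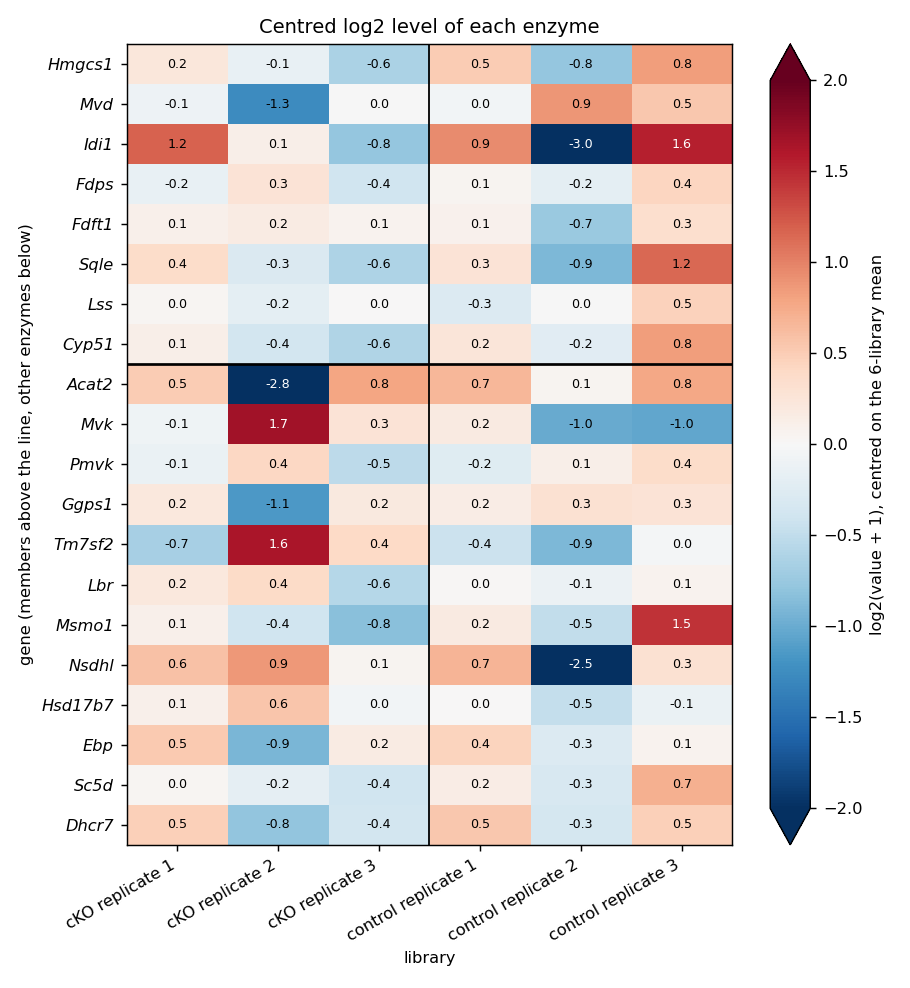
Log2(value + 1) of each enzyme centred on its mean over the 6 libraries (colour and printed value; columns are libraries, cKO left of control), with the 8 members above the line and 12 of the other synthesis enzymes below. Control replicate 3 is positive for every member, up to 1.55 for Idi1, and control replicate 2 reaches -3.01 for Idi1.

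Among 11625 other tested genes with a mean of at least 5, the 6 whose profile lay nearest to the members' mean were Nampt, Snx8, Zfp58, Nedd9, Cdc25a and Sc5d, at distances of 0.10 to 0.11. Sc5d, sterol C5-desaturase, is an enzyme of the same pathway, and was at 64.7, 55.3 and 47.4 in cKO, against 70.1, 50.3 and 104 in control. Nampt, the rate-limiting enzyme of the NAD salvage pathway, was nearest, at 102, 76.9 and 73.1 in cKO, against 98.5, 69.1 and 143 in control. Insig1, which retains the SREBP complex in the endoplasmic reticulum, ranked 17th in this order at 0.14, while Msmo1 ranked 478th and Srebf2 605th. Without Idi1 in the mean, 2 of these 6 genes, Nampt and Sc5d, were still among the 6 nearest, ranking 1st and 2nd, while Insig1 ranked 94th, Srebf2 106th and Msmo1 1318th. With 6 libraries many genes take a like course, and the order is given as a description only.

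Per kilobase of annotated exon, Hmgcs1 was the most abundant member and Mvd the least. Lengths were the merged exons of GENCODE M21, which can be longer than the transcript in use, above all for Lss with 10787 bases, so the levels per kilobase are approximate. Hmgcs1 was highest at 52.5 ± 22.6 scaled CPM per kilobase over the 6 libraries (SD), followed by Cyp51 at 23.0 ± 8.98, and stood above it in 6 of 6 libraries. Fdft1 was at 14.2 ± 3.14, Sqle at 11.9 ± 6.66 and Idi1 at 8.94 ± 6.65 per kilobase, and their SDs overlapped. Cyp51 stood above Fdft1, Fdft1 above Sqle and Sqle above Idi1 in 5 of 6 libraries each. Fdps followed at 5.79 ± 1.32 per kilobase, with Idi1 above it in 3 of 6 libraries, so these neighbours had no fixed order. Lss was at 4.14 ± 0.805, below Fdps in 6 of 6, and Mvd was lowest at 2.90 ± 1.53 per kilobase, below Lss in 5 of 6.

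The other 14 enzymes of the pathway gave no call either. Limma called 0 higher and 0 lower, with 6 higher and 8 lower in cKO and a median log2 difference of -0.16. The smallest unadjusted p was that of Mvk, mevalonate kinase, at 7.48, 27.8 and 9.89 in cKO, against 9.22, 3.46 and 3.39 in control (log2 difference 1.24, SE 0.68). The limma p of Mvk was 0.0946 before adjustment, with an adjusted p of 0.9996. Its mean in cKO was drawn up by replicate 2.

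Msmo1, the methylsterol monooxygenase that acts after Cyp51, stood well above its other libraries in control replicate 3. Msmo1 was at 87.8, 62.3 and 45.8 in cKO, against 93.0, 58.0 and 227 in control (log2 difference -0.75, SE 0.48). Tm7sf2, a sterol C14-reductase, had a log2 difference of 0.91 (SE 0.69), and Nsdhl, which removes the C4 groups of sterols, one of 1.01 (SE 0.79). Nsdhl was as low as 1.77 in control replicate 2, the library where Idi1 was also lowest, on 24 reads. Control replicate 3 was the highest library for 2 of these 14 enzymes, Msmo1 and Sc5d, and cKO replicate 2 for 7 of the 14, where 23.8% of tested genes had their highest value in cKO replicate 2.

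Regulators of the pathway were also without a call. Of 10 genes of the SREBP system, 7 were higher and 3 lower in cKO, with 0 called and a median log2 difference of 0.08. Without control replicate 2 the number higher was 4 of the 10. Srebf2, the transcription factor gene itself, was at 141, 144 and 161 in cKO, against 173, 148 and 232 in control, and the groups overlapped only where cKO replicate 3 stood above control replicate 2 (log2 difference -0.29, SE 0.29). Insig1 was at 83.0, 90.3 and 63.4 in cKO, against 101, 60.2 and 140 in control (log2 difference -0.28, SE 0.37). Control replicate 3 was the highest library for 4 of the 10, Srebf2 and Insig1 among them. Srebf1, which mainly drives fatty acid synthesis, had a log2 difference of 0.20 (SE 0.30), and Mbtps2, the protease that frees SREBPs, one of 0.22 (SE 0.33).

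Of 12 genes of cholesterol export, esterification and oxysterol formation, 11 were tested, with 8 higher, 3 lower and 0 called, at a median log2 difference of 0.22. The 4 with the smallest unadjusted p were Npc2, a lysosomal cholesterol carrier (log2 difference -0.66, SE 0.47), Cyp27a1, sterol 27-hydroxylase (-0.88, SE 0.72), Soat1, which esterifies cholesterol (0.40, SE 0.44), and Cyp7b1, oxysterol 7-alpha-hydroxylase (0.52, SE 0.58). Soat1 was at 55.9, 56.4 and 45.4 in cKO, against 68.8, 42.3 and 20.9 in control, lowest in control replicate 3, where 7 members were highest.

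**Figure D4:**
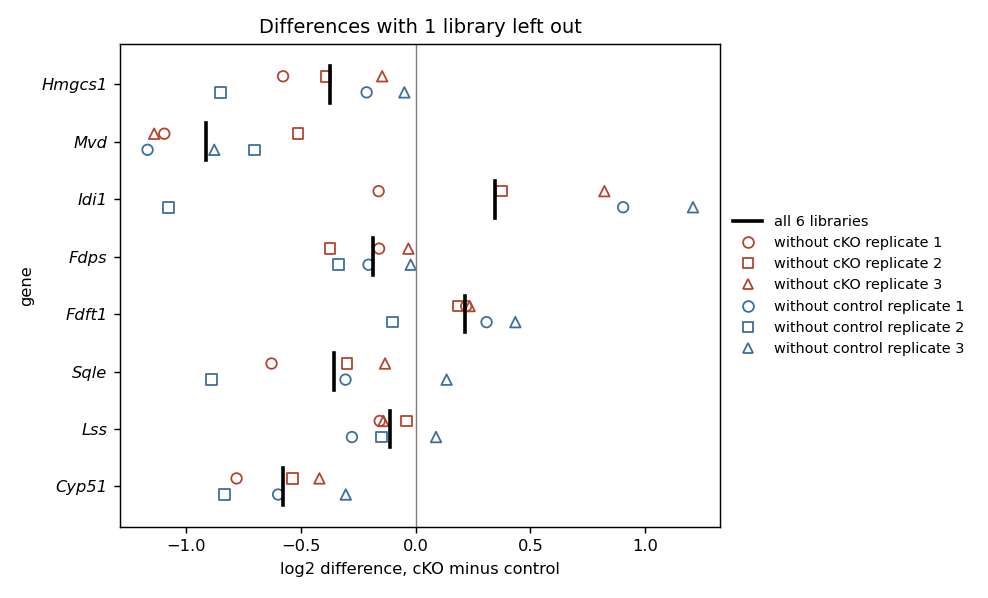
Log2 difference, cKO minus control (horizontal axis), for each member with all 6 libraries (black bar) and with 1 library left out (open symbols; red for a cKO and blue for a control library). Leaving out control replicate 2 (blue squares) gives the most negative value for Hmgcs1, Idi1, Fdft1, Sqle and Cyp51, and leaving out control replicate 3 (blue triangles) gives the most positive value for all members but Mvd.

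Leaving out each library in turn gave between 0 and 4 members higher in cKO, against 2 with all libraries. Without control replicate 2 all 8 were lower, and without control replicate 3 there were 4 higher and 4 lower. The smallest unadjusted p of any member in these fits was 0.0541, for Hmgcs1 without control replicate 2, and the smallest adjusted p of a member was 0.732, for Cyp51 without cKO replicate 1. Leaving out both libraries numbered 1, which lay closest to each other, gave no call among the members, at a smallest unadjusted p of 0.0889, for Cyp51.

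Cell type markers moved between libraries as well, and fewer cells of a type cannot be told apart from less RNA per cell in bulk samples. The 8 members summed to 624, 480 and 383 scaled CPM in cKO replicates 1 to 3, against 670, 354 and 939 in control replicates 1 to 3. The 12 oligodendrocyte markers, Cldn11 among them, summed to 30841, 17614 and 10319.5 in cKO, against 26131.5, 18072 and 21129 in control. Among the cKO libraries both sums were highest in replicate 1 and lowest in replicate 3. In control they parted, since control replicate 3 had the highest member sum and a middle oligodendrocyte sum. Of the 12 markers none was at 0 in any library, and 11 were lower and 1 higher in cKO, with 0 called. The 12 neuron markers, led by Snap25 and Syt1, summed to 1663, 3944 and 6884 in cKO, against 2889, 3812 and 2933 in control. Of these 12, 7 were higher and 5 lower in cKO, with 0 called.

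**Figure D5:**
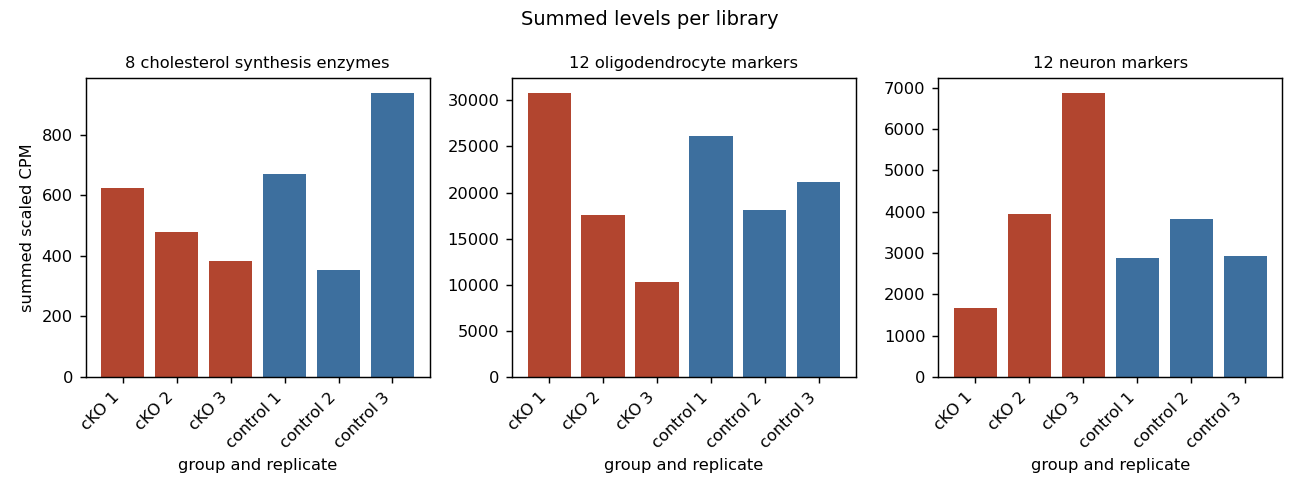
Summed scaled CPM per library of the 8 enzymes, 12 oligodendrocyte markers and 12 neuron markers (bars from 0; red, cKO; blue, control). The enzyme sum is highest in control replicate 3, at 939, and the oligodendrocyte sum in cKO replicate 1, at 30841.

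The 11 astrocyte markers, led by Slc1a2 and Gfap, summed to 1123, 1988 and 893 in cKO, against 883, 1181 and 628 in control. The highest sum was that of cKO replicate 2, and none of these markers was at 0 in any library. Of these 11, 10 were higher and 1 lower in cKO, with 0 called and a median log2 difference of 0.53. The 7 oligodendrocyte precursor markers, led by Ptprz1 and Vcan, ran from 1431 to 2618 in cKO, against 1615 to 2073 in control. Among them 5 were higher and 2 lower, with 0 called. The 11 mural and fibroblast markers, led by Col1a1 and Col3a1, ran from 136 to 2715 in cKO, against 392 to 4679 in control, with Lum at 0 in one library, and 2 were higher and 9 lower, with 0 called. The 10 endothelial markers, led by Cdh5 and Flt1, ran from 111 to 172 in cKO, against 70.5 to 171 in control, with Cldn5 and Emcn at 0 in at least one library. Here 6 were higher and 4 lower, with 0 called. The 10 microglia markers, Cx3cr1 among them, ran from 32.2 to 65.2 in cKO, against 44.3 to 58.8 in control, and C1qa, Tmem119, Trem2, Tyrobp and Ctss were at 0 in at least one library. Only 6 microglia markers were tested, with 2 higher, 4 lower and 0 called. The part of these cell types in the members' levels was not tested.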

How the data were processed

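RNA was measured in 6 libraries, 3 labelled cKO and 3 labelled control. Per the submitters' processing notes, reads were handled with Trimmomatic, HISAT2, featureCounts and edgeR on mm10; no source used here gives versions, the annotation or the strand setting. The deposited values are a normalized signal, named CPM by the authors but scaled again per library, as column totals of 961962 to 1027958 show. All values were whole multiples of 1 step per library within 0.01 of a read, so depth and read numbers were recovered by division. Intervals and floors cover counting error only.

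Log2(value + 1) was tested with limma 3.58.1 (R 4.3.3, trended variance, no block). Genes entered if 3 or more libraries reached a value of 1, with Benjamini-Hochberg adjustment over all of them. The differences understate the change of low genes. The design had assumed plain CPM. EdgeR 4.0.16 and DESeq2 1.42.0 were run on recovered reads of 5 libraries, leaving out cKO replicate 2, whose step of 0.101 lies close to a rounding step; this was chosen after seeing the data. The pseudocount (0.1 or 5), the filter (none, or a value of 5), the scaling, a replicate block and left-out libraries were varied too; the fit without replicates 1 and the mean profile without Idi1 were added after seeing the data. The procedure was run on simulated counts drawn independently for each library, which cannot show how it performs with the spread between libraries seen here.

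The members and lists were chosen with earlier results of these data known. Named are all members, Padi4, the 4 genes of smallest p per pathway list, standard genes of the pathway, the 2 highest markers per list and the 6 nearest profiles; some of these are not reported here. Marker genes at 0 were named after their values were seen.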

Additional observations from a re-analysis of the deposited data

How the results depend on the processing

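Across 18 alternatives (17 for Mvd, which was not tested with the filter at 5), no member was called, and Hmgcs1, Mvd, Fdps and Cyp51 kept their direction in all. The replicate block and the changes of filter leave the difference of every tested member as it was by construction. Directions kept in those settings are therefore no support. Without both libraries numbered 2 the log2 difference of Idi1 was -1.05, that of Fdft1 -0.13 and that of Mvd -0.30, and 4 of the 10 SREBP system genes were higher. With a pseudocount of 5, Mvd was at -0.52 and Idi1 at 0.08. On the 5 libraries with recovered reads Idi1 was at -0.23 with edgeR and -0.24 with DESeq2, both the reverse of its sign with all libraries. Limma without cKO replicate 2, on the same 5 libraries, gave 0.38 for Idi1. Over single left-out libraries the differences ran from -0.85 to -0.05 for Hmgcs1, -1.17 to -0.51 for Mvd, -1.08 to 1.21 for Idi1, -0.37 to -0.02 for Fdps, -0.10 to 0.43 for Fdft1, -0.89 to 0.13 for Sqle, -0.28 to 0.089 for Lss and -0.83 to -0.30 for Cyp51. The cause of these reversals was not tested. Over all tested genes limma called 0 in every setting (50 higher and 76 lower unadjusted with all libraries, 432 and 535 without cKO replicate 1, 14 and 39 without cKO replicate 2, 66 and 125 without cKO replicate 3, 128 and 66 without control replicate 1, 22 and 43 without control replicate 2, and 18 and 18 without control replicate 3) and edgeR 0 (11 higher and 41 lower unadjusted), while DESeq2 called 1, Ifit3. No other gene of the pathway was called in any setting. Scaling moved the median of all tested genes by less than 0.1 on the log2 scale.

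With the replicate number as a block, limma called 0 genes (110 higher and 197 lower unadjusted). Every number occurs once in each group, so the block cannot change a difference, and Cyp51 stayed at -0.58 by construction. Same-numbered libraries deviated from their group means with correlations of 0.49, 0.30 and 0.03 for numbers 1 to 3. Each correlated best with its own number, but number 3 hardly so, at 0.034. By comparison, cKO replicate 2 with control replicate 3 gave 0.028, and cKO replicate 3 with control replicate 1 gave 0.008. The match of numbers 1 and 2 is a hint from the data and not from the design. The libraries were not treated as paired. Depth limits Mvd in cKO replicate 2 (14 reads).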
